A study of Mus musculus with 16 samples.

Results

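The core circadian clock was followed in the bladder of mature and aged mice through 10 genes: Arntl (also called Bmal1), Clock, Npas2, Per1, Per2, Per3, Cry1, Nr1d1, Nr1d2 and Dbp. They were picked by symbol. A probe belonged to a gene when the transcript accession listed for it on the array mapped to that symbol in the RefSeq annotation. This gave 11 probes, 1 for each gene and 2 for Dbp, and all 10 genes passed the filter on dim probes among the 26781 genes tested. The genes were measured in the bladder body of C57BL/6 mice, with 1 mouse on each of 16 one-colour Agilent arrays. MAT mice were 12 months old (4 males, 4 females) and AGED mice were 27 to 30 months old (4 males, 4 females). No treatment or allele is given in the labels for any group. The whole bladder body was extracted, so a lower signal can come from fewer cells of a type or from less RNA per cell, and these cannot be told apart here. The study's methods give a daily cycle of light and dark and place a blood glucose measurement, followed by anaesthesia and opening of the abdomen, in the early afternoon. They do not say whether the bladders used for RNA were taken then, and the part of the hour in any difference below was not tested.

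In the mammalian clock, the proteins of Arntl and Clock pair, bind E-boxes in DNA and switch on their target genes. Npas2 can stand in for Clock. Among the targets are the Per and Cry genes, whose proteins return to the nucleus and shut off Arntl and Clock, and Nr1d1 and Nr1d2 (the REV-ERB receptors), which repress Arntl through ROR elements. Dbp is an output of the loop, a transcription factor that acts on D-boxes, among them those of Per genes. In peripheral tissues, the bladder included, Arntl and Npas2 transcripts therefore run in antiphase to Dbp, Nr1d1 and the Per genes over the day, and Cry1 peaks later than the Per genes.

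Signals are given as log2 of the processed spot signal less the 75th percentile of the array, so 0 is the level of the 75th percentile and a step of 1 is a 2-fold difference. Every direction follows the labels of the arrays. The study's own list of its most changed genes runs the other way with age: genes it lists as lower in AGED mice, such as Chil3 and Mmp3, were higher on the arrays labelled AGED, and Kcnj5, which it lists as higher, was lower. Of 10 genes on that list, 8 were tested here, and all 8 had the opposite sign in both sexes. Some of these differences were small. F10 differed by 0.12 in males and 0.15 in females (limma adjusted p = 0.844 and 0.902), and Gsg1l by -0.23 in females (0.907). Which of the labels and the list has the direction right cannot be told here, and if the labels of age were exchanged, every AGED minus MAT sign below would turn. Levels of different probes cannot be set against each other, because probes differ in how well they bind. The 16 arrays had a median spot signal of 48.4 to 129, and arrays of the same group correlated at 0.957 to 0.993 across probes. AGED male 1 was the dimmest. All 6 urothelial and all 5 smooth muscle markers were detected in every group, and none was called with age or sex. The 8 female arrays shared 1 slide and the 8 male arrays another, with MAT arrays in 1 row of the slide and AGED arrays in the other. Sex and slide, and age and row, cannot be told apart. Of the 10 clock genes, 8 were well above background on all 16 arrays, while Cry1 and Npas2 were so on 15, the exception being AGED male 1 for both.

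Promoter sequence was available for 9 of the 10 genes in the RefSeq promoter table of GRCm38.p6, as 13 windows of 250 bases before and 50 bases after an annotated start site. The elements of the clock searched on both strands were the E-box CACGTG, the E-prime box CACGTT, the D-box TTATGTAA or TTACGTAA, and the ROR element core TAGGTCA. Among all 32851 promoters of the table, 7.15% held the E-box, 4.68% the E-prime box, 1.06% the D-box and 2.61% the ROR core. Positions count from 1 at the start site, with -1 just before it, to the 5′ end of the match, and no match overlapped another. The 5 genes with a match are printed below 5′ to 3′ on the strand of the gene, with the matched letters in capitals, because they show where the elements that tie these genes together sit. A match is a description of the letters and was not tested for binding.
Per1 promoter, with an E-box at -166, GRCm38.p6 chr11:69098699-69098948, plus strand: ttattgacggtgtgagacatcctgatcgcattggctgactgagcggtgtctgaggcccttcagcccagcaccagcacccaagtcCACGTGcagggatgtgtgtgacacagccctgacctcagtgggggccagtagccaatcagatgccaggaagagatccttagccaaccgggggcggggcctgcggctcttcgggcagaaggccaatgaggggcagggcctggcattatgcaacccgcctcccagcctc
Cry1 promoter, with an E-prime box read on the other strand (AACGTG as printed) at -79 and an E-box at -60, GRCm38.p6 chr10:85185055-85185304, minus strand: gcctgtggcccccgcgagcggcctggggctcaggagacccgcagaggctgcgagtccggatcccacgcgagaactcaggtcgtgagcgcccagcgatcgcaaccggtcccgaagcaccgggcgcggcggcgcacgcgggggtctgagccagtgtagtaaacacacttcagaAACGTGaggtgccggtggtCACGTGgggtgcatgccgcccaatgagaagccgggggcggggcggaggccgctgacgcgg
Nr1d1 promoter, with an E-prime box read on the other strand (AACGTG as printed) at -28, GRCm38.p6 chr11:98775378-98775627, minus strand: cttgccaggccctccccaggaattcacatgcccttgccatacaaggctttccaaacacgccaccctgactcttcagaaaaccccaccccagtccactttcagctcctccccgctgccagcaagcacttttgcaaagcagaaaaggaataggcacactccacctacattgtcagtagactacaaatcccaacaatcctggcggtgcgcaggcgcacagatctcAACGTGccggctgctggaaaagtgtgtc
Per3 promoter, with D-boxes at -205 and -158, GRCm38.p6 chr4:151044666-151044915, minus strand: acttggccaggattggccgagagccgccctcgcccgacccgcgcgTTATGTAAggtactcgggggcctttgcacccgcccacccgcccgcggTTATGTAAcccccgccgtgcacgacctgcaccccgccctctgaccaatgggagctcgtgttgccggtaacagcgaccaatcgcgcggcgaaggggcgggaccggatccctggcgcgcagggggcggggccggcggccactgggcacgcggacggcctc
Arntl promoter, 30 bases around a ROR core at 31, past the start site, GRCm38.p6 chr7:113207530-113207559, plus strand: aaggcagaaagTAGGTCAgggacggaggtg
Of the 13 windows, 2 held an E-box, 2 an E-prime box, 1 the D-box and 1 the ROR core. The windows of Clock, Npas2, Nr1d2 and Dbp held none of these letters.

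Arntl, the activator of the loop, had the largest difference of any of the 10 genes between AGED and MAT males. In MAT males its signal was -1.26, -1.24, -1.21 and 0.46 on the 4 arrays, and in AGED males 0.98, 1.26, 0.14 and 1.06. The groups overlapped only because MAT male 4 stood above AGED male 3. The mean was -0.81 ± 0.85 (SD, n = 4) in MAT males and 0.86 ± 0.50 (SD, n = 4) in AGED males, a difference of 1.68 ± 0.43 (SE) on the log2 scale or 3.20-fold. It did not pass the test over all 26781 genes (limma adjusted p = 0.0662), and the exact permutation test over the 8 male arrays gave p = 0.0571. In females both groups spanned a similar range. MAT females had 1.37, 0.53, 1.88 and 1.88, AGED females had 0.74, 0.40, 1.78 and 1.43, and the difference was -0.33 ± 0.43 (SE, adjusted p = 0.860). The test of the difference between the sexes gave 2.0 ± 0.61 (SE) with an unadjusted p of 0.00514 and an adjusted p of 0.255. Of the 16 arrays left out in turn, 14 gave no call, with adjusted p up to 0.168 and a difference down to 1.53. Without MAT male 4 the difference was 2.10 with an adjusted p of 0.0144, and without AGED male 3 it was 1.92 with 0.0499.

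Clock and Npas2, the other genes of the activating limb, differed less with age. Clock had 0.49, 1.19, 0.27 and 0.60 in MAT males and 0.92, 0.53, 1.11 and 0.86 in AGED males, a difference of 0.22 ± 0.19 (SE) that took the other sign, -0.57, with a different background correction. Npas2 had -5.47, -4.66, -5.36 and -4.79 in MAT males and -4.95, -3.93, -5.15 and -4.15 in AGED males, and the difference was 0.52 ± 0.27 (SE, adjusted p = 0.346), or 0.32 without AGED male 2 and 0.93 with array weights. The AGED male arrays fell into a lower and a higher pair for Npas2, and 1 of the lower pair was not well above background. In females the differences were -0.04 ± 0.19 (SE) for Clock and 0.30 ± 0.27 (SE) for Npas2.

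**Figure D1:**
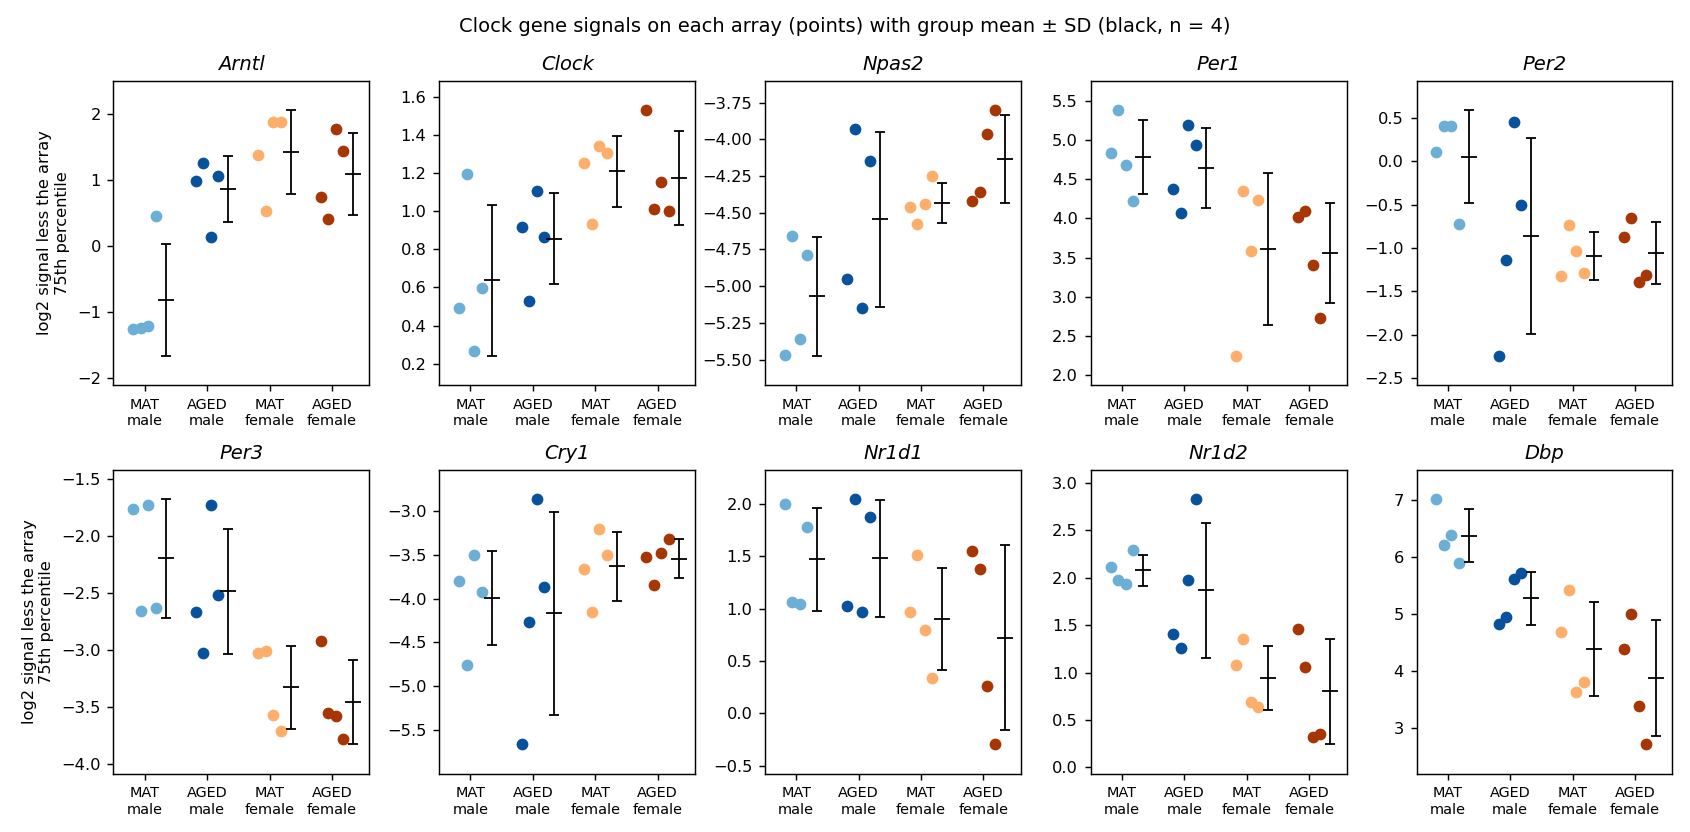
Signal of each clock gene (log2, less the 75th percentile of the array) on every array, in 4 groups of 4 mice; points are arrays and the black bar is the group mean ± SD. Dbp lies lower in all 4 AGED males (4.82 to 5.73) than in the MAT males (5.90 to 7.02), and MAT male 4 stands apart from the other MAT males for Arntl.

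Dbp, the D-box output gene, was the gene of the 10 whose male groups did not overlap. Its signal was 7.02, 6.21, 6.39 and 5.90 in MAT males and 4.82, 4.95, 5.61 and 5.73 in AGED males, so every AGED male lay below every MAT male. Across all genes tested, 7.82% had male groups that did not overlap. The difference was -1.10 ± 0.48 (SE) on the log2 scale, or 2.15-fold, with an adjusted p of 0.267 by limma. The exact permutation test gave p = 0.0286, the smallest it can give with 4 arrays against 4. The second Dbp probe gave the same picture in males, with a mean of 5.59 in MAT and 4.66 in AGED, a difference of -0.92 and no overlap (exact permutation p = 0.0286). In females Dbp was 4.69, 5.43, 3.64 and 3.81 in MAT and 4.39, 5.0, 3.39 and 2.72 in AGED, and these groups overlapped, with a difference of -0.51 ± 0.48 (SE, adjusted p = 0.776) by the first probe and -0.11 by the second.

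Of the repressors, Per2 differed most between AGED and MAT males. It had 0.10, 0.41, 0.41 and -0.73 in MAT males and -2.24, -1.14, 0.45 and -0.50 in AGED males. The AGED males ranged from the lowest to the highest Per2 value of all 16 arrays, and the difference of -0.91 ± 0.43 (SE, adjusted p = 0.316) was within that spread. Without AGED male 1 it was -0.45, and from raw spots with the normexp background correction -0.56. Per1 and Per3, the other period genes, differed by -0.14 ± 0.44 (SE) and -0.29 ± 0.30 (SE), and Per1 by -0.81 (adjusted p = 0.292) from raw spots with the normexp background correction. Nr1d1 and Nr1d2 differed by 0.01 ± 0.41 (SE) and -0.21 ± 0.32 (SE), and Cry1, a cryptochrome that represses the activator pair, by -0.17 ± 0.44 (SE), which was 0.33 without AGED male 1. For Cry1 the spread in AGED males, from -5.66 to -2.87, was wider than in any other group. In females, Per1, Per2, Per3, Cry1, Nr1d1 and Nr1d2 differed by between -0.18 and 0.09 with age, and the groups overlapped for every one of the 10 genes, against 10.8% of all genes with female groups that did not.

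Counted over the 10 genes, none was called with age in either sex, where a call asks for a Benjamini-Hochberg adjusted p under 0.05 over all genes and at least a 2-fold change. Of all genes tested, 0.851% were called in males and 0.19% in females. At an unadjusted p under 0.05, 2 of the 10 clock genes passed in males (Arntl and Dbp), where 16.2% of all genes did, and 0 in females, where 10.5% did. Averaged over the sexes, 0 were called (0.295% of all genes) and 3 had an unadjusted p under 0.05 (17.8% of all genes): Arntl at 0.67, Npas2 at 0.41 and Dbp at -0.81. For the difference of the age changes between the sexes, 0 passed an adjusted p under 0.05 (0.149% of all genes) and 1, Arntl, had an unadjusted p under 0.05 (9.87% of all genes). The median age difference of the 10 genes was -0.15 in males, beside 0.00 over all genes, and -0.09 in females, beside -0.01. Of 3 neutrophil markers 2 had a probe, S100a8 and S100a9, and both were called higher in AGED males, by 2.43 and 3.08. The study's own list has S100a9 as lower in AGED mice. The summed neutrophil markers ranged from -2.03 to -0.31 in MAT and from 0.59 to 2.56 in AGED males. Their part in the clock gene differences was not tested.

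**Figure D2:**
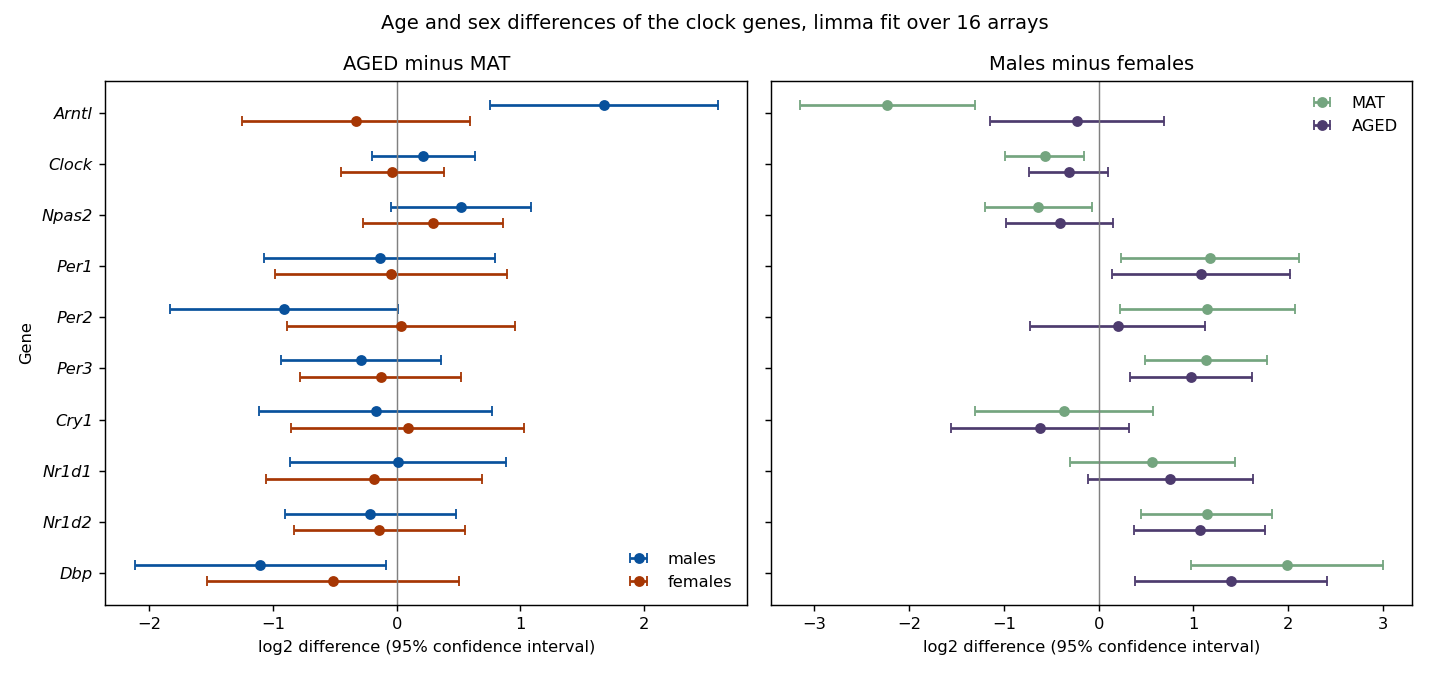
Differences of the 10 clock genes on the log2 scale with 95% confidence intervals from limma, for AGED minus MAT in each sex (left) and males minus females at each age (right). The Arntl interval in males, 0.76 to 2.60, lies above 0, while in females it spans -1.25 to 0.59.

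More of the clock genes reached an unadjusted p under 0.05 between the sexes than with age. Among MAT mice, Dbp was 3.96-fold higher in males (1.99 ± 0.48 SE, adjusted p = 0.0905) and Arntl was 4.69-fold lower in males (-2.23 ± 0.43 SE, adjusted p = 0.0525). None of the 10 was called, beside 0.164% of all genes, but 8 of the 10 had an unadjusted p under 0.05, beside 14% of all genes. Higher in MAT males at that unadjusted level were Per1 (1.17), Per2 (1.14), Per3 (1.13), Nr1d2 (1.14) and Dbp, and lower were Arntl, Clock (-0.57) and Npas2 (-0.64). For 6 of the 10 (Arntl, Npas2, Per2, Per3, Nr1d2 and Dbp) the MAT males and MAT females did not overlap, as was the case for 18.4% of all genes. Nr1d2, for example, was 2.11, 1.98, 1.93 and 2.30 in MAT males and 1.07, 1.36, 0.69 and 0.63 in MAT females. Per3 was -1.77, -2.66, -1.73 and -2.63 in MAT males and -3.03, -3.01, -3.56 and -3.71 in MAT females. Nr1d1 (0.57 ± 0.41 SE) and Cry1 (-0.36 ± 0.44 SE) were the 2 that did not pass. The median of the 10 was 0.85, beside 0.08 over all genes. For Arntl, the adjusted p was 0.00956 without MAT male 4, 0.0371 without AGED male 3 and 0.044 without AGED male 1. The other 13 of the 16 arrays left out in turn gave no call. Over all alternatives run, the limma adjusted p for Arntl reached 0.155.

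Among AGED mice, all of Dbp, Nr1d1, Nr1d2, Per1, Per2 and Per3 again had the higher mean in males, though Per2 turned to -0.24 without AGED male 3 and Nr1d2 to -0.14 with normexp, another background correction. Nr1d2 differed by 1.07 ± 0.32 (SE, adjusted p = 0.0513), Per3 by 0.97 ± 0.30 (SE, 0.0563), Dbp by 1.40 ± 0.48 (SE, 0.0774) and Per1 by 1.08 ± 0.44 (SE, 0.133), all higher in males, while Arntl differed by -0.23 ± 0.43 (SE, 0.780). Those 4 of the 10 genes had an unadjusted p under 0.05 (26.2% of all genes) and none was called (3.11% of all genes). No gene of the 10 had AGED groups without overlap by its tested probe, beside 13.7% of all genes, though the second Dbp probe did not overlap (4.66 in males, 3.53 in females, exact permutation p = 0.0286). Calls appeared when some single arrays were left out, while 12 of the 16 left out in turn gave none. Over all alternatives run, the limma adjusted p reached 0.780 for Nr1d2, 0.153 for Per3 and 0.255 for Dbp. Nr1d2 was called without AGED female 1, AGED male 1 or AGED male 2 (1.22 to 1.29, adjusted p 0.0300 to 0.0320), Per3 without AGED female 1 or AGED male 2 (1.15 each, adjusted p 0.0425 and 0.0356), and Dbp without AGED female 2 (1.77, adjusted p 0.0369).

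Other measures moved with sex as well. The 4 adipocyte markers, summed, ranged from -3.66 to 2.46 in MAT males and from 2.87 to 5.09 in MAT females, and from -4.31 to 1.74 in AGED males and from 2.24 to 3.24 in AGED females, with 1 of the 4 not above background on any array of either male group. The 4 B and plasma cell markers ranged from -0.69 to 2.92 in MAT males and from 3.80 to 5.42 in MAT females. In AGED mice they overlapped, with 0.30 to 3.48 in males and 1.95 to 4.83 in females. The urothelial sum was 9.12 to 9.38 in MAT males and 8.89 to 9.07 in MAT females, and the smooth muscle sum 9.81 to 9.89 and 9.60 to 9.73, both without overlap. In AGED mice both sums overlapped between the sexes (urothelium 9.07 to 9.40 in males and 8.76 to 9.18 in females, smooth muscle 9.79 to 10.03 and 9.20 to 10.03). The part of these tissues in the clock gene differences was not tested. The place of a spot on the array moved with the groups as well. On the 4 AGED male arrays, the processed signals of spots well above background in rows 289 to 384, the last of the array, exceeded the raw spot less local background by a median of 0.16 to 0.41 on the log2 scale. On the other 12 arrays that median was -0.29 to -0.03. The spots of Clock (row 377), Nr1d2 (row 382), Per1 (row 334) and the tested Dbp probe (row 298) lie there. For Clock the processed signal exceeded the raw one by 0.98 to 2.08 in AGED males, by 0.18 to 1.29 in MAT males and by -0.04 to 0.14 in females. For Nr1d2 it did so by 0.51 to 1.81 in AGED males by -0.15 to 0.69 in MAT males and by -0.16 to 0.07 in females. For Per1 it did so by 0.39 to 0.79 in AGED males and by -0.26 to 0.01 in MAT males. For the tested Dbp probe it did so by -0.13 to 0.47 in AGED males and by -0.18 to 0.27 in MAT males. The part of this in the results was not tested. From raw spots corrected with normexp, Nr1d2 was 1.20 lower in AGED than in MAT males (adjusted p = 0.0471) and differed by -0.14 between the AGED sexes, and Clock was 1.78 lower in AGED males than in AGED females (adjusted p = 0.00032). The directions of Clock with age and of Nr1d2 between the AGED sexes depended on that correction. Per1 between the AGED sexes fell to 0.51 from 1.08 with it, and Npas2 between the MAT sexes came to -0.01 from -0.64. Normexp was run with an offset of 50 added to the signals, which shrinks log2 differences between dim spots. The processed Npas2 signal was only 23.6 to 37.9 in MAT males and 50.4 to 62.0 in MAT females. The part of the offset in these shifts was not tested. Arntl (row 267), Per3 (row 177) and the second Dbp probe (row 68) lie outside those rows, but their signals were not free of shifts. In the part of the array with the second Dbp probe, the median was -0.46 to -0.26 on AGED male arrays. On the other 12 it was -0.18 to 0.02. For that probe itself the log2 ratio of processed to raw signal was -0.22 to -0.09 in AGED and -0.12 to 0.08 in MAT males. For Per3 it was -0.54 to -0.37 and -0.47 to -0.14. The Per3 age difference in males went from -0.29 to -0.03 with normexp. On AGED male 1 the processed Arntl signal exceeded the raw one by 0.70. On the other AGED males and the MAT males it was 0.04 to 0.34 below it. Without AGED male 1 the Arntl age difference in males was 1.64 (adjusted p = 0.0982), and with normexp 1.39 (adjusted p = 0.0605).

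The pattern of each array was summarised as a phase index, the mean of the centred Arntl, Clock and Npas2 signals less the mean of the centred Dbp, Nr1d1, Nr1d2, Per1, Per2 and Per3 signals, with no test. A high index means an array with more activator and less E-box-driven transcript than the average of the 16. MAT males had -2.13, -1.30, -1.89 and -0.72, all below 0. AGED males had 0.19, 0.26, -1.05 and -0.47, on both sides of 0. MAT females had 0.94, -0.20, 1.24 and 1.30, and AGED females 0.34, 0.13, 1.58 and 1.80. The group means were -1.51 ± 0.63, -0.27 ± 0.62, 0.82 ± 0.70 and 0.96 ± 0.85 (SD, n = 4) in that order. MAT males and AGED males overlapped, since MAT male 4 lay above AGED male 3, and the female groups overlapped too, though AGED females 3 and 4 lay above every MAT female. Cry1, kept out of the index, was lowest on AGED male 1 (-1.83 from its mean) and highest on AGED male 3 (0.97).

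**Figure D3:**
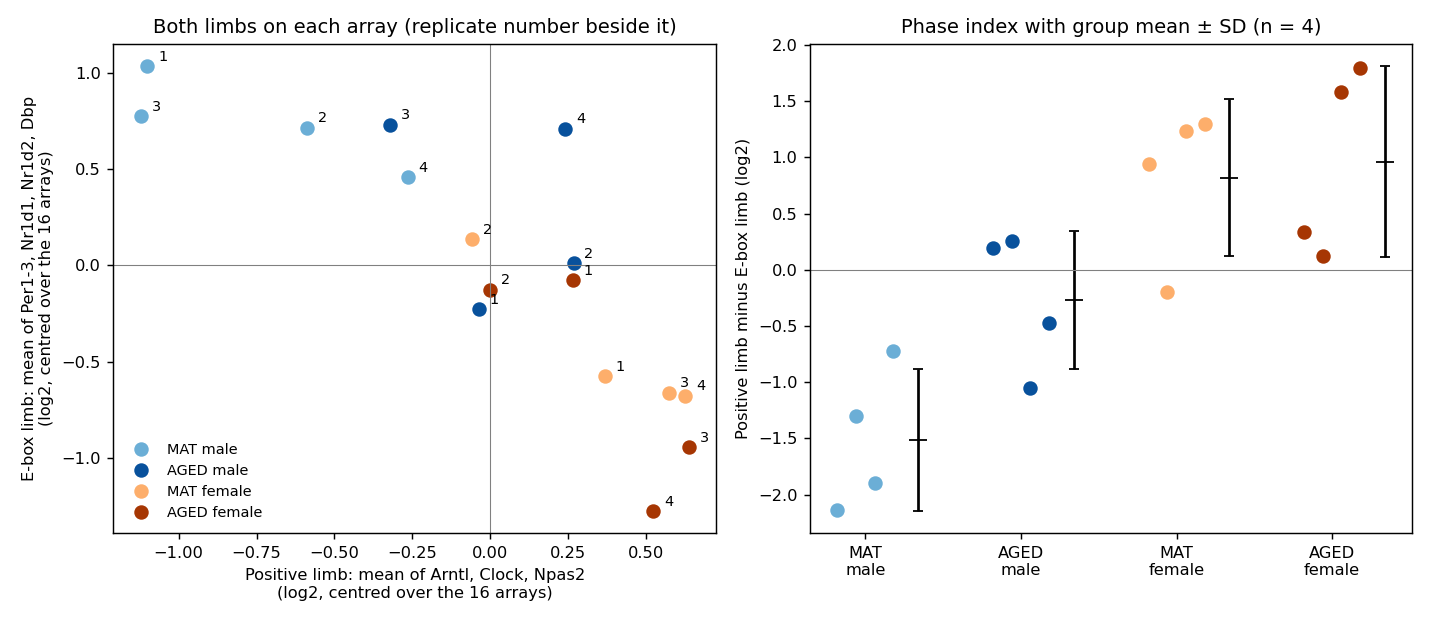
Left, the mean centred signal of the positive limb (x axis) against that of the E-box limb (y axis) on each of the 16 arrays, both in log2 units; right, their difference by group with mean ± SD. The arrays run from MAT males at the upper left, with indices down to -2.13, to females at the lower right, with indices up to 1.80.

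Arntl and Dbp also moved in opposite directions between mice of the same group. After each group mean was taken off, 45 pairs of genes were correlated over the 16 arrays, with permutation of arrays within groups and Benjamini-Hochberg adjustment over the 45 pairs. Arntl ran against Dbp (Pearson r = -0.75, permutation p = 0.00283; Spearman rho = -0.80, permutation p = 0.00132) and against Per2 (r = -0.66, p = 0.0022; rho = -0.75, p = 0.00176). Npas2 ran against Per3 (r = -0.79, permutation p = 0.00315; rho = -0.78, p = 0.00884). The adjusted permutation p was 0.0472 for each of the 3 by Pearson, and by Spearman 0.0396 for both Arntl pairs and 0.0663 for Npas2 and Per3. Without the 2 arrays farthest from the median of Arntl or Npas2, r was -0.75, -0.60 and -0.68. Within males r was -0.60, -0.67 and -0.83, and within females, the other slide, -0.92, -0.86 and -0.74. In both female groups the mice with high Arntl and low Dbp were replicates 3 and 4. The permutation took the groups as unlinked, so its p values do not allow for such a shared split. The highest positive pairs, Nr1d1 with Dbp (r = 0.71), Nr1d2 with Dbp (r = 0.70), Per2 with Cry1 (r = 0.63) and Per3 with Dbp (r = 0.61), did not pass the adjustment (adjusted permutation p = 0.0819, 0.053, 0.393 and 0.053). For Nr1d1 and Dbp, r was 0.91 in females and 0.19 in males. With Arntl, r was -0.05 for Clock and 0.01 for Cry1, and for Cry1 it was -0.26 in males and 0.85 in females. Which pairs pass was unstable. None of the 45 passed with quantile normalization or with normexp. Leaving out 1 array gave between 0 and 6 passing pairs, with 6 without AGED female 2, 5 without MAT male 2 and 0 for 11 of the 16 arrays. The r values moved less. Over those runs and 2 other scalings, Arntl with Dbp stayed between -0.81 and -0.61, Npas2 with Per3 between -0.90 and -0.69, and Arntl with Per2 between -0.86 and -0.36.

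**Figure D4:**
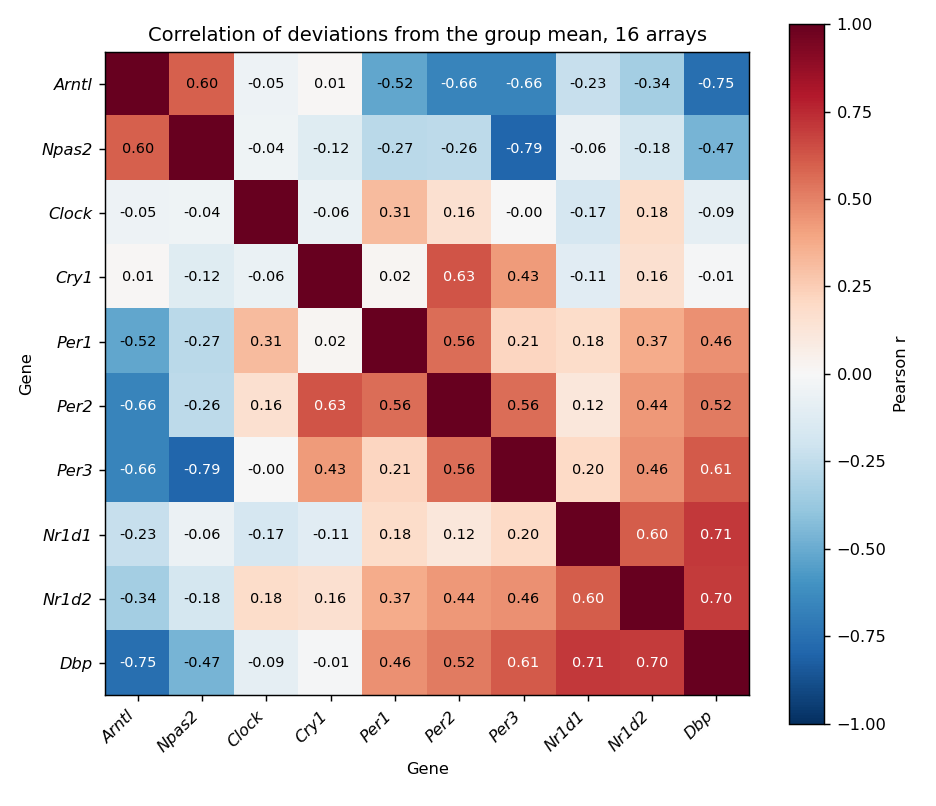
Pearson correlation (colour and number) between each pair of clock genes over 16 arrays, after the group mean was taken off each gene. Arntl and Npas2 correlate with each other (0.60) and are negative with Per1, Per2, Per3 and Dbp, while Dbp is positive with Nr1d1 (0.71) and Nr1d2 (0.70).

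This variation between mice was large for most of the 10. The standard deviation within groups was 0.73 for Dbp, 0.68 for Cry1 and Per1, 0.66 for Arntl and Per2 and 0.63 for Nr1d1, beside a median of 0.30 over the 26526 genes with a value on all arrays. For Dbp 93.1% of genes varied less, and for Arntl 90.5%. Clock, at 0.28, was the exception below the median, and it is the gene of the 10 whose transcript is known to cycle little in many tissues. Over all genes, those whose deviations from the group mean were most like Arntl were Ppp1r3c, a glycogen-targeting subunit of protein phosphatase 1 (r = 0.90 over 16 arrays), then among genes with a symbol Adam19 (0.87), Bcorl1 (0.84), Rrad (0.84) and Shc2 (0.84). Those most like Dbp were Ciart, a circadian repressor of the Arntl and Clock pair (r = 0.88, rank 2 of 26525 genes), then Myo1h (0.84), Fibp (0.83), Chst13 (0.82) and Apoa2 (0.82). Chst13 was dim in females, with means of -6.54 in MAT and -5.88 in AGED. The dimmest probes well above background on those arrays were at -6.54 to -5.99 in MAT and -5.80 to -5.28 in AGED females. Ordered by likeness to Dbp, Nr1d1 ranked 100 and Nr1d2 112 of the 26525, and Arntl was 15 from the opposite end.

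Of 22 other genes of the clock, all were tested, and 1 was called with age in males (0.851% of all genes). Bhlhe40 (also Dec1), a repressor that competes for E-boxes, fell in AGED males. It had 1.26, 2.20, 1.03 and 1.66 in MAT males and 0.17, 0.30, 0.45 and 0.70 in AGED males, with no overlap, and the difference was -1.13 (adjusted p = 0.0184). In females the difference was 0.00. Without MAT male 2 the male difference was -0.91, under the 2-fold limit (adjusted p = 0.0396). The call was also lost with normexp (-0.86), with array weights (-0.89, adjusted p = 0.0762) and with each sex fitted alone (adjusted p = 0.199). Of the 22, 8 had an unadjusted p under 0.05 in males, where 16.2% of all genes did. Higher in AGED males at that level were Arntl2, the paralogue of Arntl (0.84, adjusted p = 0.0535), Rorb, a ROR receptor (1.00, 0.0644), and Nampt, an enzyme of NAD synthesis (0.38, 0.239). Lower besides Bhlhe40 were, among others, Ciart (-1.78, 0.231), Hlf, a D-box factor like Dbp (-0.84, 0.112) and Usp2, a deubiquitinase of clock proteins (-0.92, 0.188). Rorb was dim. Its highest AGED male value (-3.55, AGED male 1) and its lowest MAT male value (-5.43, MAT male 4) were both not well above background. In females 4 of the 22 had an unadjusted p under 0.05, where 10.5% of all genes did: Timeless (0.82, adjusted p = 0.140), Rorb (0.58, 0.448), Hlf (-0.68, 0.369) and Rora (-0.37, 0.449). The median age difference of the 22 was -0.10 in males and 0.01 in females.

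**Figure D5:**
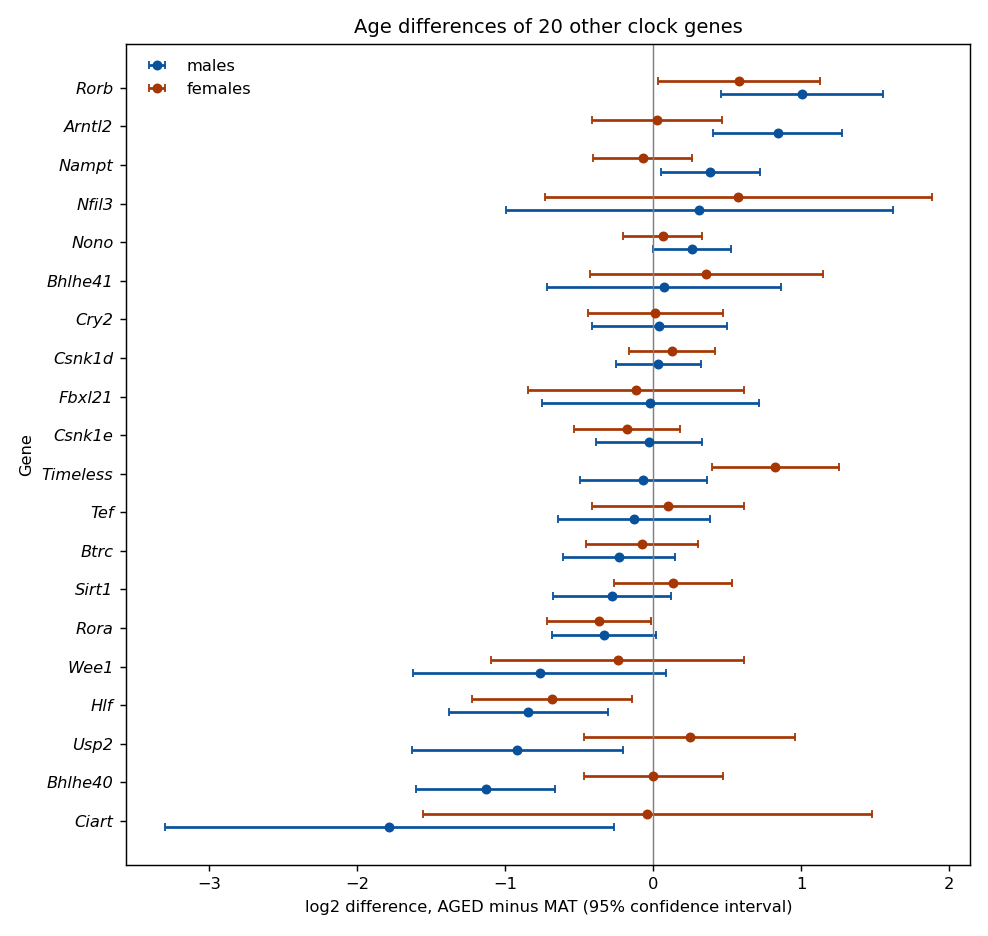
Age difference (AGED minus MAT, log2) of 20 other clock genes with 95% confidence intervals from limma, males in blue and females in brown. Bhlhe40 differs by -1.13 in males and 0.00 in females, and Ciart has the widest male interval, from -3.30 to -0.26.

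Ciart, chosen here for its likeness to Dbp, had -0.07, -0.23, -0.84 and -2.21 in MAT males, -3.10, -3.11, -1.64 and -2.63 in AGED males, -3.94, -2.63, -4.31 and -4.80 in MAT females and -2.58, -2.57, -5.06 and -5.62 in AGED females, the last not well above background. MAT male 4 was again the MAT male nearest the AGED males. Between MAT males and MAT females 0 of the 22 were called (0.164% of all genes) and 12 had an unadjusted p under 0.05 (14% of all genes), 10 of them higher in males, with Ciart at 3.08 (adjusted p = 0.0800) and Tef, a D-box factor, at 1.15 (adjusted p = 0.0625). Between AGED males and females 1 was called (3.11% of all genes), Timeless, lower in males by 1.07 (log2 difference -1.07, adjusted p = 0.00667). It was between -0.98 and -0.88, under the fold limit, without AGED female 4, AGED male 1 or AGED male 3, and lost its call with normexp (-0.88), array weights (-0.90) and the mean of all kept probes (-0.94) too.

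Clock genes answer to glucocorticoids and, for the Per genes, to signals that also raise immediate early genes, so the values of both lists are given. Of 6 glucocorticoid target genes, 0 were called in any comparison and 0 had an unadjusted p under 0.05 with age, with medians of 0.19 in males and 0.43 in females. Between MAT males and females all 6 were higher in males, with a median of 0.75. In AGED mice 4 of the 6 were, with a median of 0.60. At each age 1 had an unadjusted p under 0.05 between the sexes (14% of all genes in MAT and 26.2% in AGED mice). Of 8 immediate early genes, which answer to handling and stretch within minutes, 0 were called. In males 4 had an unadjusted p under 0.05 (16.2% of all genes), all lower in AGED: Egr1 (-2.30, adjusted p = 0.0742), Fosb (-2.21, 0.241), Jun (-1.17, 0.165) and Junb (-1.09, 0.290). All 8 had a negative male difference, with a median of -1.38, and the female median was -0.24. MAT male 2 had the highest male value for every one of the 8. For Fosb it had 4.03, beside -1.14, 0.55 and 0.18 in the other MAT males, and for Egr1 6.01, beside 2.88, 4.68 and 2.86. Between MAT males and females 5 of the 8 were higher in males (median 0.42). In AGED mice all 8 were lower in males (median -0.68), 2 with an unadjusted p under 0.05 (26.2% of all genes). Their part in the clock gene differences was not tested.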

How the data were processed

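RNA of 16 mouse bladders, 1 per array, was labelled with Cy3 and hybridized to 1-colour Agilent arrays. Feature Extraction (version 10.7.3.1 in the file headers, 9.1 in the submitters' processing notes) gave the deposited intensities of each spot. These are the raw median, its local background and a processed signal from which the software has taken background and spatial trends, along with quality flags. A value table on the log2 scale was deposited too. When compared with the scanner values it matched the log2 of the processed signal after scaling of arrays and centring of probes, to within 0.0135 in the median of any array, and in the same direction. Its column medians lay between -0.12 and 0.29.

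The processed signals were put on the log2 scale, less the 75th percentile of their array. Control spots and outlier-flagged spots (399 probe values) were left out, and 0 spots were saturated. RefSeq accessions named 26582 of 55681 probes. The filter asked for a signal well above background on 4 or more of the 16 arrays, which 36974 probes met, and the brightest such probe on average stood for its gene (26781 genes, 15933 with a symbol). The main test was limma (version 3.58.1, R 4.3.3) with the 4 group means in a single model and 12 residual degrees of freedom. Adjustment was by Benjamini-Hochberg over all genes, and a call asked for an adjusted p under 0.05 and 2-fold (no fold limit for the difference between the sexes). Single genes had two-sided exact permutation tests, and correlations used 100000 permutations (numpy 2.4.6, scipy 1.17.1, pandas 2.3.3, Python 3.11.15). With 4 arrays a group, precision is limited by their number. The procedure was tested on simulated data.

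The 10 genes and the lists (22 other clock genes, 6 glucocorticoid targets, 8 immediate early genes, cell type markers) were chosen with earlier results of these data known. The text names the 10 genes, listed genes called or with an unadjusted p under 0.05 in an age comparison, and the 5 genes with a symbol most correlated with Arntl and with Dbp. The values of 2 of the other clock genes are not reported here. Tef was added after its values were seen, as was the look at spot rows. Alternatives covered scaling, background correction, filters, floor, several probes of a gene, array weights, variance trend, each sex alone, the replicate block, the methods' t-test and leaving out each array.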

Additional observations from a re-analysis of the deposited data

Results flagged for a closer look

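Of 44 groups of 4 arrays examined (the 10 genes and the phase index in each group), 1 held an array far from the others, where chance gives about 1 in 20. Arntl on MAT male 4 was 0.46, while the other 3 MAT males lay between -1.26 and -1.21, so the gap took 0.968 of the range of the group.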

How the results depend on the processing

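The 60 age and sex differences of the 10 genes were recomputed under 1708 combinations with an alternative, of which 1636 kept the sign. Many of these could not change a sign, because they altered only the spread, the genes tested or arrays outside the comparison. The Arntl age difference in males, for example, stayed at 1.68 whichever female array was left out. The 72 that changed sign belonged to 27 differences, none of them called. A call was reached in 28 combinations for 11 differences. The number of the 10 genes called with age in males, 0 as reported, was 1 with normexp (Nr1d2), 1 with probes well above background on all 16 arrays (Arntl, adjusted p = 0.0468), 2 with limma without adjustment and 2 with the methods' t-test at p under 0.05 and 2-fold, and 0 to 1 with 1 array left out. In females and averaged over the sexes it stayed at 0 in all alternatives run. The difference of the age changes gave 1 without adjustment. Between MAT males and females, 0 became 1 with array medians, the filter on all 16 arrays, a floor on low signals or a variance trend (Arntl each time), 5 with array weights, 6 without adjustment, and 0 to 1 with 1 array left out. Between AGED males and females, 0 became 2 with normexp (Clock and Dbp), 1 with the filter on 16 or on 8 arrays, the floor or the variance trend (Nr1d2), 3 without adjustment, and 0 to 2 with 1 array left out. Normexp moved the median of all genes to 0.12 for age in males and to 0.25 for sex in AGED mice. Calls over all genes moved too, given here as higher and lower. With age in males, normexp called 64 and 692, beside 74 and 154 as reported. Between AGED males and females it called 203 and 958, beside 331 and 503. Between MAT males and females, array weights called 191 and 410, beside 27 and 17. Without adjustment, 751 genes passed with age in males, 690 between the MAT sexes and 1360 between the AGED sexes. Of the correlations, 3 pairs became 0 with quantile normalization and 0 with normexp, and 0 to 6 with 1 array left out. The phase index means moved by less than 1 SD in every alternative run. Of the 22 other clock genes, the 1 called with age in males (Bhlhe40) became 2 with normexp, neither of them Bhlhe40, 0 with each sex fitted alone, 0 with array weights and 0 to 2 with 1 array left out. Between MAT males and females, 0 became 1 with the floor or the variance trend, 5 with array weights and 0 to 1 with 1 array left out. Between AGED males and females, 1 (Timeless) became 2 with normexp, neither of them Timeless, 0 with the mean of all kept probes, 0 with array weights and 0 to 2 with 1 array left out. The cause was not tested.

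Over all genes, samples with the same replicate number did not deviate together (r from -0.15 to 0.16). The number is also the column of the array on its slide. In both female groups, replicates 3 and 4 had lower Dbp and higher Arntl than replicates 1 and 2. The male groups did not share this split. Whether same-numbered mice are linked for the clock genes was not tested. With the replicate block, 0 of the 10 genes were called in every comparison, as without it. The slide as a random block was not run, because each slide held 1 sex. Few arrays and dim spots limit Cry1 and Npas2, which were not well above background on 1 of 16 arrays.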
